A study of Mus musculus with 8 samples.

Results

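The response of tumor mast cells (MC) to DC101, an antibody against VEGF receptor 2 of the mouse, was read from 4 of the 8 arrays of the series. All 24111 transcript clusters of the value table were used, a cluster being the set of probes that an array reads as 1 gene. Both treatment groups held 2 arrays of MC sorted from Panc02 tumors, a mouse pancreatic cancer line grown under the skin of C57BL/6J mice. Mice were randomized at a tumor volume of 100 mm3, and received either placebo or 40 mg/kg DC101. MC were gated by flow cytometry on CD45, CD11b, CD117 (KIT) and the IgE receptor FcεRI. The other 4 arrays held MC from the peritoneal lavage, 2 with placebo and 2 with DC101. They enter the fit for the spread and serve as the comparison at the end. Nothing in the labels tells whether a group's arrays stand for different mice. All p-values are therefore about the spread of these arrays, which may be technical. Values are on the log2 scale. A value near or below the median cluster, at 3.48, cannot be separated from background.

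MC are granulated immune cells of tissues that carry KIT and the high-affinity IgE receptor. Their granules hold histamine, heparin and serine proteases such as chymases, tryptases and carboxypeptidase A3, and in mice some MC also make granzymes, the serine proteases best known from cytotoxic lymphocytes. VEGF receptor 2 (Kdr) is chiefly a receptor of endothelial cells. Kdr itself had values of 2.42 and 2.68 with placebo and of 2.87 and 2.66 with DC101 in tumor MC, all in the range of background.

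The sort markers were well above the median cluster on all 4 tumor arrays. Kit, the stem cell factor receptor, was at 10.20 and 9.26 with placebo and at 9.36 and 10.11 with DC101. Fcer1a, the IgE-binding chain, was at 9.54 and 9.27 with placebo and at 9.31 and 9.78 with DC101. Ptprc, which encodes CD45, was at 8.79 and 8.53 with placebo and at 8.34 and 8.95 with DC101. These 3 genes overlapped between the groups. Itgam, which encodes CD11b and is also a gene of macrophages, was at 6.08 and 6.65 with placebo and at 5.94 and 5.94 with DC101, without overlap (log2 fold change −0.43, not at an unadjusted p under 0.05). Genes of other cells were read as well. The keratin gene Krt18, a marker of epithelial and tumor cells, lay between 9.50 and 10.11 on the tumor arrays, the macrophage lysozyme gene Lyz2 between 10.35 and 10.71, and the T cell gene Cd3e between 4.66 and 6.17. B cell genes were near background, with Ms4a1 (CD20) at 2.54 or less. In a bulk sample, fewer cells of a type and less RNA per cell cannot be told apart, so the values below are those of the sorted population.

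The difference between the treatments was small against the spread of the arrays. The correlation over all clusters was 0.983 between the placebo arrays, 0.986 between the DC101 arrays, and 0.981 to 0.985 between arrays of different treatment. Of all clusters, 91.4% had a log2 fold change under 0.5 in size, and the median log2 fold change was −0.03. No cluster passed a Benjamini-Hochberg adjusted p under 0.05 by limma's contrast (0 of 24111 clusters, 0%), and the lowest adjusted p was 0.158. With an unadjusted p under 0.05 there were 1215 clusters, 568 higher (2.36%) and 647 lower with DC101 (2.68%), where 1206 are expected by chance. The nested F-test of limma, which takes tumor and peritoneal MC together and so also draws on the peritoneal values, called 23 clusters in tumor MC. The thresholds printed by the study (p under 0.05, log2 fold change 1 or more in size) were met by 164 clusters (0.68%), with 92 higher (0.382%) and 72 lower with DC101 (0.299%). These are called "at the study's thresholds" below, with unadjusted p, and the words "higher" and "lower" describe the values of these arrays. Both DC101 arrays lay above both placebo arrays in 15.7% of all clusters and below both in 20.6%. Of the 164 clusters, 160 were without overlap between the groups, which follows largely from their choice by a large difference on these same arrays. The count was 308 without placebo array 1, 416 without placebo array 2, 248 without DC101 array 1 and 326 without DC101 array 2, and between 91 and 119 of the 164 remained among them. An exact permutation test of 2 against 2 arrays cannot go below p = 0.333.

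**Figure D1:**
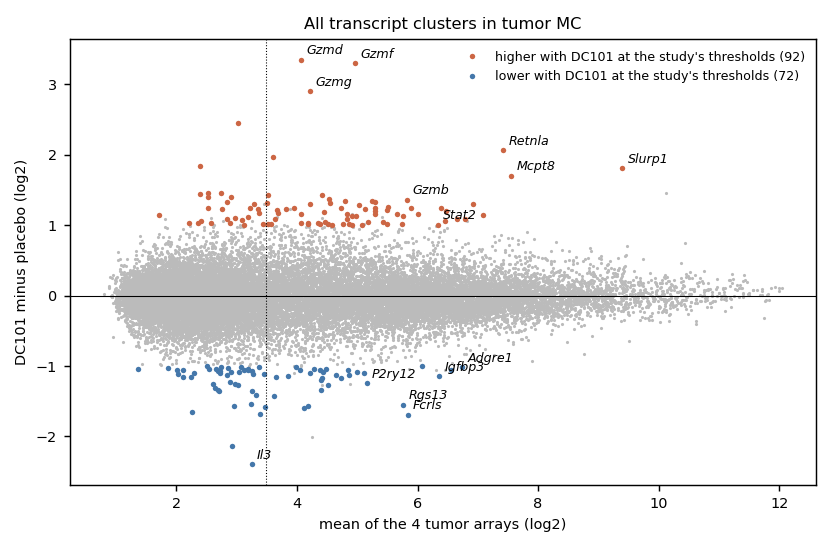
Mean RMA value of the 4 tumor arrays (x axis, log2) against the difference of DC101 minus placebo in tumor MC (y axis, log2) for 24111 transcript clusters. Coloured points are the 92 higher and 72 lower clusters at the study's thresholds, and the dotted line marks the median cluster at 3.48. The 3 granzyme genes Gzmd, Gzmf and Gzmg stand at the top with differences of 2.91 to 3.35.

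Granzyme genes had the largest positive differences with DC101. Of 10 measured genes of the granzyme and perforin list, 5 were at the study's thresholds, all higher, where the share over all clusters was 0.382%. In 7 of the 10, both DC101 arrays lay above both placebo arrays, against 15.7% of all clusters. The median log2 fold change of the list was 1.001, against −0.03 over all clusters, and it lay between 0.87 and 1.24 when each tumor array was left out. None had an adjusted p under 0.05. This and the other lists below were chosen with earlier results of these data known. Part of an excess over all clusters can follow from that choice. The genes of the Gzmc to Gzmg group are close paralogs of 1 locus on chromosome 14. Probes can read more than 1 of them, so their values are uncertain one by one. Gzmc, Gzmd, Gzmf and Gzmg are 4 of the 5 at the thresholds, so these may not be separate readings. Their promoters are close in sequence too. Transcript and probe sequences were not compared, so which of these genes a probe reads was not tested. RefSeq's promoters of GRCm38.p6 (250 bases before to 50 bases after the start, all on the minus strand) are printed because all 4 genes were at the study's thresholds, with the longest run of 20 bases that all 4 hold in capitals.
Gzmd, chr14:56132544-56132843: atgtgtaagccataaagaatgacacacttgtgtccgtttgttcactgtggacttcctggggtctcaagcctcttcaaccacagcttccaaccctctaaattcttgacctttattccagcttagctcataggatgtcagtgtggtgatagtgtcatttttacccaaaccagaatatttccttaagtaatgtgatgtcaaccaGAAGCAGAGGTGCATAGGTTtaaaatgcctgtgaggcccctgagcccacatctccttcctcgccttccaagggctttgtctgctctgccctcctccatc
Gzmg, chr14:56159530-56159829: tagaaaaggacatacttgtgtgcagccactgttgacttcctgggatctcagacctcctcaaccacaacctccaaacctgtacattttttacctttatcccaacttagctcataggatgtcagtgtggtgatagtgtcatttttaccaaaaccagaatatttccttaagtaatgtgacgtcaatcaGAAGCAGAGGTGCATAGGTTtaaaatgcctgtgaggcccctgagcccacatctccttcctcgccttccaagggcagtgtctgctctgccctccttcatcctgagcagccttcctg
Gzmf, chr14:56211358-56211657: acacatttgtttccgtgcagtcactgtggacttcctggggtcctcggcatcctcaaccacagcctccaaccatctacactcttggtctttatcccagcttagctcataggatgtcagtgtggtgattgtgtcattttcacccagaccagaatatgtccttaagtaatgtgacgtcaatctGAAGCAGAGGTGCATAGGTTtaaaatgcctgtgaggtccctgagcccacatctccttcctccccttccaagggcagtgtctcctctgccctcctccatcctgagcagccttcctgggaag
Gzmc, chr14:56234608-56234907: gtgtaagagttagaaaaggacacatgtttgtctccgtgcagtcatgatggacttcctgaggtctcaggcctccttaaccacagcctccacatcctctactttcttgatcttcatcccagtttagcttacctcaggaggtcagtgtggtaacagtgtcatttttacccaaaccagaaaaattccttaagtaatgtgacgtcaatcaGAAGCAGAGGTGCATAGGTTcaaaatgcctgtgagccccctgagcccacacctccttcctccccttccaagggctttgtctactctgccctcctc
In global alignments, Gzmf and Gzmg were identical at 85.3% of the columns, Gzmd and Gzmg at 82.6%, and Gzmc and Gzmf at 74.9%. Against Gzmb, whose protease has its own substrate preference, identity was 44.4% for Gzmd and 50.2% for Gzmf. The letters TGACGTCA, a cyclic AMP response element searched on both strands, stood in the promoters of Gzmc, Gzmf and Gzmg and of no other of the 10 list members, against 1.79% of all 32851 RefSeq promoters of this length. The matched promoters are close in sequence, so their matches are not independent and the share describes the list. A match describes these letters and is no measured binding site.

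Gzmf was at 3.07 and 3.56 with placebo and at 6.24 and 6.99 with DC101. Both DC101 arrays were clearly above both placebo arrays, and the log2 fold change was 3.30 (SE 0.35, limma adjusted p = 0.16). Gzmd was at 3.03 and 1.75 with placebo and at 4.90 and 6.59 with DC101, a log2 fold change of 3.35 (SE 0.54, limma adjusted p = 0.58). Gzmg was at 3.04 and 2.49 with placebo and at 5.11 and 6.24 with DC101, a log2 fold change of 2.91 (SE 0.40, limma adjusted p = 0.32). In each of the 3 genes the placebo arrays were in the range of background and DC101 array 2 was the highest of the 4. The placebo values give little hold on the size of the differences. Gzmc was already above background with placebo, at 6.50 and 6.04, and was at 7.18 and 7.97 with DC101, with a log2 fold change of 1.31 and an SE of 0.30. Gzmb, which cleaves after aspartate and is known to trigger apoptosis in target cells, was at 5.09 and 5.20 with placebo and at 6.14 and 6.88 with DC101. DC101 array 2 was again the highest. Leaving it out took Gzmb from 1.36 to 0.995 and Gzmc to 0.91, under the fold threshold, while Gzmd, Gzmf and Gzmg stayed at the thresholds when any 1 of the 4 tumor arrays was left out. The pore-forming protein gene Prf1 was at 3.26 and 3.94 with placebo and at 4.22 and 4.37 with DC101, with no overlap and a log2 fold change of 0.69 that did not reach the fold threshold. Gzma, a tryptic granzyme, was at 3.57 and 3.87 with placebo and at 4.70 and 3.92 with DC101. Gzmk, Gzmm and Gzmn overlapped between the groups.

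Granzymes are also made by T and NK cells, so the 13 measured T and NK cell markers are given beside them. Their mean level on the 4 arrays was 4.48 and 5.25 with placebo and 4.75 and 4.96 with DC101, which overlap. The median log2 fold change was −0.10, and its sign turned with the placebo arrays, from −0.59 without placebo array 1 to 0.31 without placebo array 2. Placebo array 2 had the highest value in 9 of the 13 markers (27.5% of all clusters), among them Cd3e (6.17), Cd8a (6.44) and Nkg7 (7.96). Of the 13 markers, 6 had a positive and 7 a negative log2 fold change. The NK receptor genes Klrd1 and Ncr1 were among the positive ones. Klrd1 was at 4.97 and 5.48 with placebo and at 6.06 and 6.22 with DC101 (log2 fold change 0.92). Ncr1, which encodes NKp46, was at 3.30 and 3.28 with placebo and at 3.51 and 4.31 with DC101 (log2 fold change 0.62), near background on 3 arrays. These 2 were the list members with an unadjusted p under 0.05, both higher (2.36% of all clusters). Their part in the granzyme values was not tested.

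Of 13 MC granule proteases, 1 was at the study's thresholds, higher, against 0.382% of all clusters. Mcpt8, a protease of basophil and MC granules, was at 6.83 and 6.58 with placebo and at 8.08 and 8.74 with DC101. The groups were well apart, with a log2 fold change of 1.71 (SE 0.28, adjusted p = 0.58 in limma), and the gene stayed at the thresholds when any 1 of the 4 tumor arrays was left out. Of the 8 basophil markers, Mcpt8 and Itga2 were at the thresholds in opposite directions (0.382% of all clusters higher, 0.299% lower). The others overlapped, among them the basophil protease Prss34 at 6.78 and 6.14 with placebo and at 6.10 and 7.14 with DC101. Mcpt1, the mucosal MC chymase, was at 9.60 and 9.20 with placebo and at 10.95 and 10.75 with DC101. The tumor groups did not overlap and were tight, with standard deviations of 0.29 for placebo and 0.14 for DC101. The log2 fold change was 1.45. Its SE of 0.65 also holds the wider spread of the peritoneal arrays, which were all at 3.94 or less. With this SE, Mcpt1 missed the p threshold (unadjusted p = 0.051 by limma). The classical MC proteases were nearly level. Cma1 and Mcpt4, both chymases, had log2 fold changes of 0.17 and −0.08, the tryptase gene Tpsb2 of 0.15 and Cpa3 of 0.11, with SEs between 0.20 and 0.22. The list median was 0.15.

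**Figure D2:**
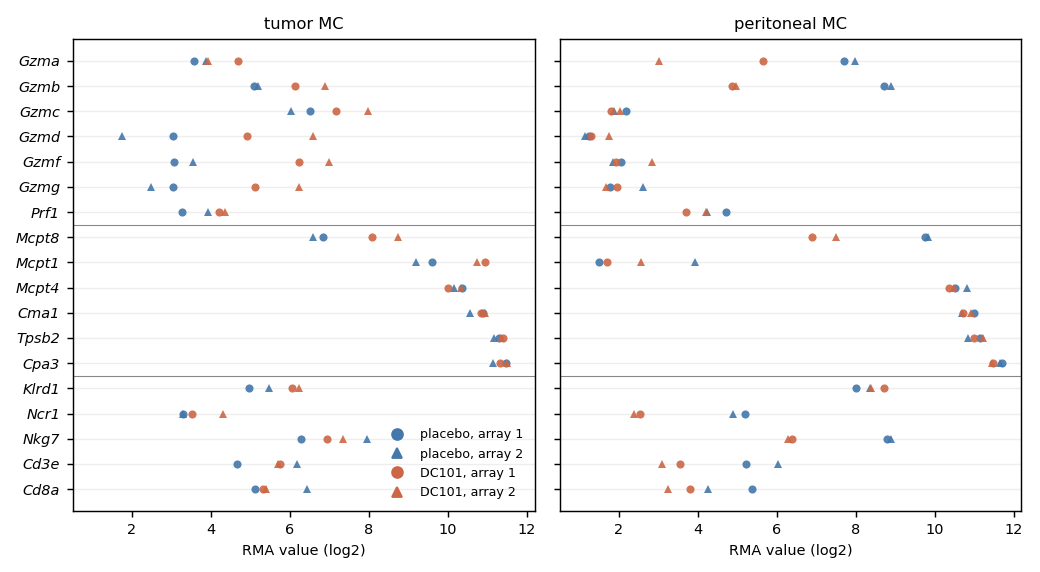
RMA value (x axis, log2) of each array for granzymes and perforin (top), MC granule proteases (middle) and T and NK cell markers (bottom) in tumor MC (left) and peritoneal MC (right). Each point is 1 array, blue for placebo and orange for DC101. In tumor MC the DC101 points of Gzmd, Gzmf and Gzmg lie between 4.90 and 6.99 and the placebo points at 3.56 or less, whereas in peritoneal MC Gzmb and Mcpt8 are lower with DC101.

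Among the genes above the median cluster, 47 met the rule for the leading genes with higher and 21 with lower values with DC101, and the 15 largest of each are shown by array in the plot of leading genes. Single arrays weighed heavily: of the 44 named genes at the thresholds, 23 dropped out without placebo array 1, 9 without placebo array 2, 27 without DC101 array 1 and 9 without DC101 array 2. Gzmd, Gzmf, Gzmg, Mcpt8, Cfap69 and Fcrls stayed each time. Retnla, a resistin-like protein that macrophages secrete when alternatively activated, was at 5.01 and 7.77 with placebo and at 8.63 and 8.29 with DC101. Placebo array 1 stood apart, and without it the log2 fold change went from 2.07 to 0.69. Slurp1, a secreted Ly6-family protein known from keratinocytes, was at 7.72 and 9.26 with placebo and at 10.52 and 10.09 with DC101. Its log2 fold change went from 1.81 to 1.04 without placebo array 1. Kcnk5, a background potassium channel gene, was at 3.79 and 3.89 with placebo and at 5.20 and 5.25 with DC101, with tight tumor groups. Its SE of 0.46 also holds the spread of the peritoneal arrays. It stayed at a log2 fold change between 1.33 and 1.43 in each leave-out, but met the p threshold in 1 of the 4. Cstdc4, a stefin-type inhibitor of cysteine proteases, was at 4.57 and 4.59 with placebo and at 6.41 and 5.44 with DC101, and was at 0.85 without DC101 array 1. Ly6c1, a Ly-6 surface antigen, was at 3.30 and 2.33 with placebo, in the range of background, and at 4.73 and 3.74 with DC101. Its log2 fold change was 1.42 (0.94 without placebo array 2 and 0.93 without DC101 array 1). Cfap69, a gene of cilia and flagella, had a log2 fold change of 1.32.

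Genes of alternative activation were split. Of 15 measured, 3 were at the study's thresholds, all higher (0.382% of all clusters), but 10 of the 15 had a negative log2 fold change and the list median was −0.06. The 3 were Retnla, the chitinase-like lectin gene Chil3 and the hyaluronan receptor gene Lyve1. Chil3 was at 3.96 and 4.29 with placebo and at 6.04 and 4.90 with DC101, and without DC101 array 1 its log2 fold change went from 1.34 to 0.77. Lyve1 was at 4.28 and 4.88 with placebo and at 5.62 and 5.54 with DC101 (log2 fold change 1.002, and 0.70 without placebo array 1). On the other side, the mannose receptor gene Mrc1 was at 5.98 and 6.25 with placebo and at 4.94 and 5.45 with DC101 (log2 fold change −0.92). Ccl6, a myeloid chemokine, was at 5.87 and 6.60 with placebo and at 7.56 and 7.10 with DC101 (log2 fold change 1.09). Of 30 matrix-degrading proteases and inhibitors, Mmp19 (1.02) and the cathepsin gene Ctsk (1.09) were at the thresholds, both higher (0.382% of all clusters), and the median was −0.06. Ctsk was in the range of background with placebo, at 3.26 and 2.90, and was at 0.57 without DC101 array 1. Of 11 neutrophil markers, 1 was at the thresholds (0.382% of all clusters higher), the resistin-like gene Retnlg, at 4.76 and 4.98 with placebo and at 6.87 and 5.40 with DC101. Its log2 fold change went from 1.26 to 0.53 without DC101 array 1. The calprotectin genes S100a8 (0.25) and S100a9 (0.32) overlapped between the groups.

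**Figure D3:**
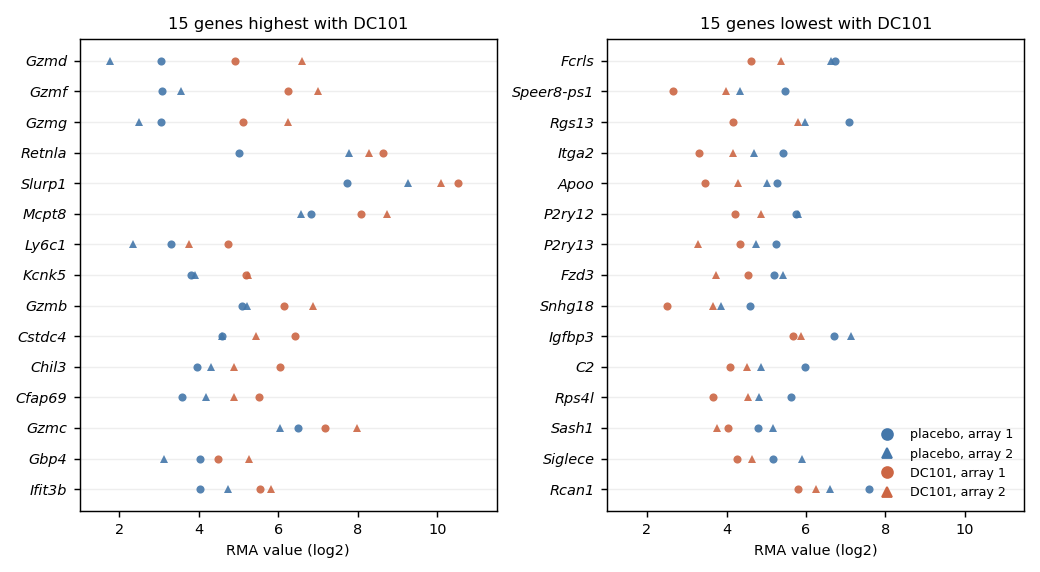
RMA value (x axis, log2) of the 15 genes with the largest positive (left) and negative (right) difference in tumor MC, with 1 point per array, blue for placebo and orange for DC101, circles for array 1 and triangles for array 2. By the rule that chose them, the groups do not overlap. For Retnla, placebo array 1 at 5.01 lies far from placebo array 2 at 7.77.

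Genes of the type I interferon response were mostly higher with DC101, but 1 placebo array carried most of the difference. Type I interferons signal through a receptor of the chains IFNAR1 and IFNAR2 to transcription factors such as STAT2 and IRF9, which act at the interferon-stimulated response element of antiviral genes. Of the 44 measured genes of both lists (signalling and effectors), 35 had a positive log2 fold change. At the study's thresholds were 1 of 15 signalling genes and 1 of 29 effectors, both higher (0.382% of all clusters). At an unadjusted p under 0.05 were 3 and 5, all higher, against 2.36% of all clusters. Both DC101 arrays lay above both placebo arrays in 8 of 15 and 12 of 29, against 15.7% of all clusters. The list medians were 0.48 and 0.35. Placebo array 1 was the lowest of the 4 arrays in 35 of the 44 genes (79.5%, against 24.1% of all clusters). Without placebo array 1 the medians were 0.08 and 0.02, and without placebo array 2 they were 0.66 and 0.70.

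Stat2, the signal transducer, was at 5.70 and 5.97 with placebo and at 6.99 and 6.70 with DC101. Both placebo arrays were low here, and the log2 fold change was 1.01 (SE 0.22), 0.87 without placebo array 1. Oas2, which makes the oligoadenylate that activates RNase L, was at 5.53 and 6.21 with placebo and at 7.28 and 6.86 with DC101 (log2 fold change 1.20, SE 0.29, and 0.86 without placebo array 1). Ifit3b, a member of the IFIT family of RNA-binding antiviral proteins, was at 4.04 and 4.73 with placebo and at 5.55 and 5.81 with DC101 (log2 fold change 1.29, and 0.95 without placebo array 1), and its paralog Ifit3 was at 5.83 and 5.70 with placebo and at 6.36 and 6.78 with DC101. Mx2, an antiviral GTPase, and Trim30a, a tripartite-motif protein, had log2 fold changes of 0.87 and 0.82 without overlap. A second kind of pattern was seen in Usp18, which dampens interferon signalling, at 5.80 and 6.99 with placebo and at 7.14 and 7.05 with DC101. Here placebo array 2 was close to the DC101 arrays. Irf7 (6.38 and 7.53 with placebo, 7.73 and 7.49 with DC101) and Ifit1 (7.54 and 8.43 with placebo, 8.44 and 8.42 with DC101) were of the same kind. The receptor chains Ifnar1 (−0.34) and Ifnar2 (−0.12) and the DNA sensor genes Cgas (−0.10) and Sting1 (−0.09) had negative values.

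Among 13 measured interferon ligands, Gm13271, an interferon gene of the chromosome 4 cluster for which RefSeq lists the synonym Ifnz, was at 4.77 and 4.49 with placebo and at 6.32 and 5.58 with DC101 (log2 fold change 1.32, SE 0.27). It has close paralogs, so its value is uncertain alone. Ifnb1, interferon beta, was at 3.54 and 5.35 with placebo and at 5.40 and 5.45 with DC101. Placebo array 1 was again the low one. The list median was 0.07, and Ifng had a log2 fold change of 0.07. Of 20 genes of the interferon gamma response, the guanylate-binding protein gene Gbp4 was at the thresholds (0.382% of all clusters higher), at 4.03 and 3.11 with placebo and at 4.47 and 5.27 with DC101. Its log2 fold change of 1.30 was 0.84 without placebo array 2 and 0.90 without DC101 array 2. The list median was 0.19, and −0.05 without placebo array 1.

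The promoters of 2 interferon genes at the study's thresholds are shown with the core of the interferon-stimulated response element in capitals, which is GAAA, any 2 bases and GAAA again (searched on both strands, so a match on the other strand reads TTTC, any 2 bases, TTTC). Both are from RefSeq's GRCm38.p6, on the plus strand.
Stat2, chr10:128270248-128270547: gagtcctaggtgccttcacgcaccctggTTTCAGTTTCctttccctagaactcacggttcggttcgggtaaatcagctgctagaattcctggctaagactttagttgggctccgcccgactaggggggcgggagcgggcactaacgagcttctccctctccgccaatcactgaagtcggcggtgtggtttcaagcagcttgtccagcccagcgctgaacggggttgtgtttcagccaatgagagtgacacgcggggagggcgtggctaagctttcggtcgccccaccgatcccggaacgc
Ifit3b, chr19:34607707-34608006: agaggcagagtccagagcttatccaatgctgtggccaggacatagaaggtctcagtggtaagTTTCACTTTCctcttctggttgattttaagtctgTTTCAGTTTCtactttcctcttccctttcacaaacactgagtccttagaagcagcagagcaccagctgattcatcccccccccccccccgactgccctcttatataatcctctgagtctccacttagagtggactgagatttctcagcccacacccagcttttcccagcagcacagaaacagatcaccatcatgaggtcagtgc
Stat2 held 1 match and Ifit3b 2. Of the 44 list genes, 32 had a promoter in the table, and 14 of these (43.8%) held the motif, against 3.44% of all RefSeq promoters. The list was made of known interferon-stimulated genes, so this share describes the list and not the response to DC101.

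**Figure D4:**
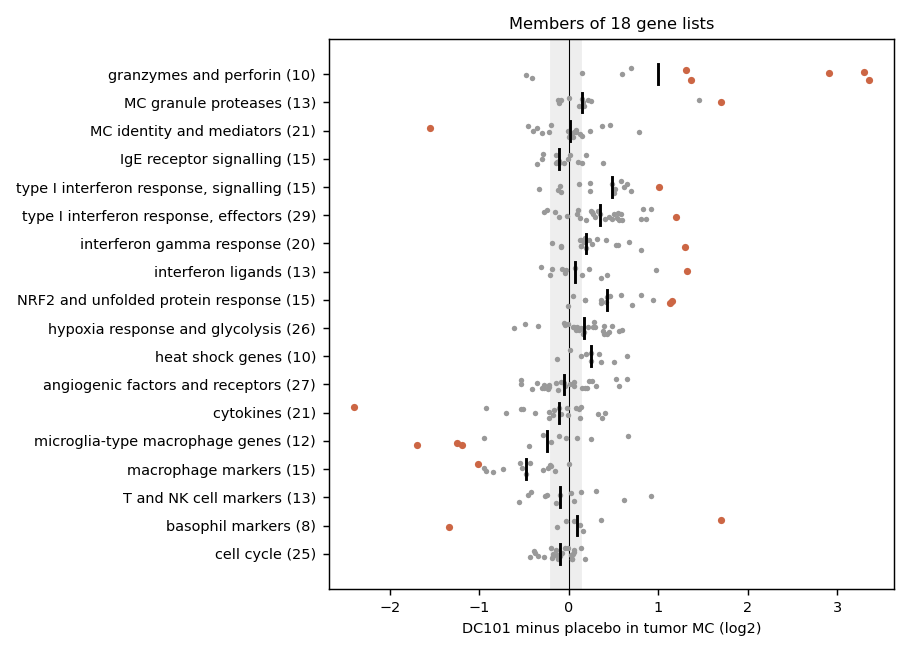
Difference of DC101 minus placebo in tumor MC (x axis, log2) of each measured member of 18 gene lists, with the number of members in brackets. Each point is a gene, orange where it is at the study's thresholds, black bars are list medians, and the grey band holds the middle 50% of all clusters. The granzyme list has the highest median (1.001) and macrophage markers the lowest of those shown (−0.47).

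Genes of the NRF2 and unfolded protein responses were higher with DC101 as a group of values. These programs answer oxidative stress, lack of amino acids and misfolded protein in the endoplasmic reticulum, through the transcription factors NRF2, ATF4, CHOP and XBP1. Of 15 measured genes, 14 had a positive log2 fold change, and in 12 both DC101 arrays lay above both placebo arrays, against 15.7% of all clusters. At an unadjusted p under 0.05 were 6, all higher (2.36% of all clusters). At the study's thresholds were 2, both higher (0.382% of all clusters), and 0 passed adjusted p. The list median was 0.43. Placebo array 1 was the lowest array in 12 of the 15, and without it the median was 0.33.

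Slc7a11, the cystine and glutamate exchanger that feeds glutathione synthesis, was at 4.01 and 4.49 with placebo and at 5.80 and 5.01 with DC101 (log2 fold change 1.16, SE 0.33). It was at 0.76 without DC101 array 1. Chac1, an enzyme that breaks down glutathione, was at 4.02 and 4.67 with placebo and at 5.52 and 5.44 with DC101 (log2 fold change 1.14, SE 0.30, and 0.82 without placebo array 1). Ddit3, which encodes CHOP, was at 7.21 and 7.84 with placebo and at 8.24 and 8.41 with DC101 (log2 fold change 0.80). Hmox1, heme oxygenase, was at 8.87 and 9.37 with placebo and at 9.85 and 9.79 with DC101 (log2 fold change 0.70). In all 4 genes the groups were apart. Trib3, a pseudokinase known as a target of ATF4 and CHOP, had a log2 fold change of 0.94 and Gclc, the catalytic subunit of the first enzyme of glutathione synthesis, of 0.58. The chaperone gene Hspa5 (0.36) and asparagine synthetase, Asns (0.43), had positive values that missed the p threshold, and Srxn1 (0.05) and Sdf2l1 (−0.01) were level. Of 10 heat shock genes 9 were positive and none was at the thresholds. Their median was 0.24, and 0.05 without placebo array 1.

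Promoters of the 2 genes at the thresholds are shown with the letters TGATGNAA in capitals, a core of the amino acid response element that ATF4 and its partners bind (searched on both strands). Both are from RefSeq's GRCm38.p6, Chac1 on the plus and Slc7a11 on the minus strand.
Chac1, chr2:119350992-119351291: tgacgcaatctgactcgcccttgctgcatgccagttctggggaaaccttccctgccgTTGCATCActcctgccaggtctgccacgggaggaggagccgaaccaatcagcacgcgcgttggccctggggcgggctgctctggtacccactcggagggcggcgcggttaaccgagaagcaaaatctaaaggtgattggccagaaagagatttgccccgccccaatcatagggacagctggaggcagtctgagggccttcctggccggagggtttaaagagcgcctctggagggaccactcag
Slc7a11, chr3:50443564-50443863: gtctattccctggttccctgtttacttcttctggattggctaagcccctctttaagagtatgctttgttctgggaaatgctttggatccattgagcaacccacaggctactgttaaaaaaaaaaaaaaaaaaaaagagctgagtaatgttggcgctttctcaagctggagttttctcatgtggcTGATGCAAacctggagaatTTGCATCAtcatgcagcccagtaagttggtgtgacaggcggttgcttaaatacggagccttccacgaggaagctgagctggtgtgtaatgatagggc
Chac1 held 1 match and Slc7a11 2. Of the 13 list members with a promoter in the table, 5 held the motif (38.5%, against 3.97% of all RefSeq promoters). They were Slc7a11, Trib3, Chac1, Asns and Herpud1. As above, the share describes a list of known targets.

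The listed macrophage markers were mostly lower with DC101. Retnla, Chil3, Lyve1 and the myeloid chemokine gene Ccl6, given above and not in this list, were higher at the study's thresholds. Of the 15 alternative activation genes, 10 had a negative log2 fold change. Of 15 measured macrophage markers, 14 had a negative log2 fold change, and in 10 both DC101 arrays lay below both placebo arrays, against 20.6% of all clusters. At an unadjusted p under 0.05 were 5, all lower (2.68% of all clusters). At the study's thresholds was 1, lower (0.299% of all clusters), and 0 passed adjusted p. The list median was −0.47, and lay between −0.58 and −0.35 when each tumor array was left out. Adgre1, which encodes F4/80, was at 6.94 and 7.55 with placebo and at 6.19 and 6.26 with DC101 (log2 fold change −1.02, SE 0.23, and −0.72 without placebo array 2). Csf1r, the receptor of macrophage colony-stimulating factor, was at 7.58 and 7.81 with placebo and at 6.53 and 7.17 with DC101 (log2 fold change −0.85). Trem2, a lipid-sensing receptor of macrophages, was at 6.77 and 7.31 with placebo and at 5.84 and 6.34 with DC101 (log2 fold change −0.95). The groups were apart in these 3. Lyz2 was level (0.01), and Cd68 was at −0.29. The mean level of the 15 markers was 7.06 and 7.27 with placebo and 6.59 and 6.74 with DC101, and none of the 15 was below the median cluster.

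Several of the genes with the largest negative differences are known from the same lineage. Fcrls, an Fc receptor-like gene of macrophages and microglia, was at 6.73 and 6.63 with placebo and at 4.61 and 5.37 with DC101. Its log2 fold change was −1.69 (SE 0.31, adjusted p = 0.61 in limma). P2ry12, an ADP receptor known from microglia and platelets, was at 5.74 and 5.81 with placebo and at 4.21 and 4.86 with DC101, and was at −0.92 without DC101 array 1. Its neighbour in the family, P2ry13, was at 5.25 and 4.75 with placebo and at 4.35 and 3.27 with DC101, and was at −0.66 without DC101 array 2. Of 12 genes known from microglia-type macrophages these 3 were at the thresholds, all lower (0.299% of all clusters). Siglech had a positive value (0.66), and the fractalkine receptor gene Cx3cr1 overlapped between the groups (−0.20). Siglece, an inhibitory lectin of myeloid cells, was at 5.17 and 5.91 with placebo and at 4.26 and 4.65 with DC101 (log2 fold change −1.09, and −0.72 without placebo array 2). The complement gene C2 had a log2 fold change of −1.13, and −0.58 without placebo array 1. The monocyte marker gene Ly6c2 went the other way, with a log2 fold change of 0.91. How far cells of the macrophage lineage in the sorted samples set these values was not tested.

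Further genes at the thresholds were lower with DC101. Rgs13, a GTPase-activating protein that restrains receptor signalling in MC and B cells, was at 7.09 and 5.98 with placebo and at 4.17 and 5.80 with DC101. DC101 array 2 was close to placebo array 2, and the log2 fold change of −1.55 (SE 0.51) was −0.73 without DC101 array 1. None of the other 11 RGS genes was at the thresholds, and the list median was −0.13. Rcan1, an inhibitor of calcineurin, was at 7.58 and 6.60 with placebo and at 5.81 and 6.25 with DC101 (log2 fold change −1.06, and −0.57 without placebo array 1). Itga2, the collagen-binding integrin α2 chain, was at 5.43 and 4.70 with placebo and at 3.30 and 4.15 with DC101 (log2 fold change −1.34, and −0.91 without DC101 array 1). It was the only 1 of 19 integrin chains at the thresholds (0.299% of all clusters lower). Igfbp3, which binds insulin-like growth factors, was at 6.72 and 7.14 with placebo and at 5.68 and 5.88 with DC101, with a clear gap between the groups (log2 fold change −1.15, SE 0.25, and −0.93 without placebo array 2). Fzd3, a Wnt receptor gene, was at 5.20 and 5.42 with placebo and at 4.55 and 3.72 with DC101, and was at −0.77 without DC101 array 2. Apoo, a gene of the mitochondrial cristae, had a log2 fold change of −1.27, and Sash1, a scaffold protein, of −1.09. Rps4l, a ribosomal protein-like gene annotated as a transcribed pseudogene, was at −1.13. The pseudogene Speer8-ps1 and the noncoding gene Snhg18 were at −1.60 and −1.15. Each of these 5 was under the fold threshold in size when 1 tumor array was left out, to −0.85, −0.89, −0.69, −0.93 and −0.57 in that order.

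Cytokine genes showed how 1 array can carry a difference. Il3, a growth factor of MC and basophils, was at 6.41 and 2.48 with placebo and at 1.69 and 2.41 with DC101. Its log2 fold change of −2.40 was the largest of the 21 cytokine genes in size, and the only 1 at the thresholds (0.299% of all clusters lower). But this value rests on placebo array 1 and was −0.43 without it. Il13, a type 2 cytokine of MC, was at 9.52 and 7.21 with placebo and at 7.22 and 7.66 with DC101, also with placebo array 1 apart. The median of the cytokine list was −0.11.

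Factors that act on blood vessels were nearly level. None of the 27 measured angiogenic factors and receptors was at the study's thresholds, and the median was −0.05. Vegfa, the main ligand of VEGF receptor 2, was at 9.06 and 9.25 with placebo and at 9.26 and 9.18 with DC101 (log2 fold change 0.06, SE 0.26). Fgf2 was at 3.05 and 2.96 with placebo and at 2.44 and 3.01 with DC101, in the range of background. Csf2, which encodes GM-CSF, was at 4.84 and 4.19 with placebo and at 3.36 and 4.61 with DC101. In both genes the groups overlapped. Hgf, hepatocyte growth factor, was at 5.63 and 5.53 with placebo and at 4.76 and 5.32 with DC101 (log2 fold change −0.54), and Flt1, VEGF receptor 1, was at 4.01 and 4.42 with placebo and at 4.72 and 4.997 with DC101 (log2 fold change 0.65). Of 26 genes of hypoxia and glycolysis none was at the thresholds, 20 were positive and the median was 0.17, with Ero1a at 0.56, Car9 at 0.45 and Ddit4 at −0.62. In all, 17 of the 38 lists had no member at the thresholds. They include the chemokine receptors, prostaglandin and leukotriene synthesis, FOS, JUN and EGR genes, the cell cycle, apoptosis regulators and markers of B cells, fibroblasts, endothelium and epithelium, and their medians lay between −0.33 and 0.24.

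The MC program itself differed more between arrays of 1 treatment than between the treatments. Of 21 measured genes of MC identity and mediators, Rgs13 was at the study's thresholds (0.299% of all clusters lower) and the median log2 fold change was 0.02. In 20 of the 21, placebo array 1 was above placebo array 2 and DC101 array 2 above DC101 array 1, an order seen in 26.9% of all clusters. The mean level of the 21 genes was 8.52 and 7.59 with placebo and 7.68 and 8.33 with DC101. Hdc, the histamine-making enzyme, was at 10.53 and 9.61 with placebo and at 9.20 and 10.24 with DC101. Ms4a2, the β chain of the IgE receptor, was at 8.83 and 7.48 with placebo and at 7.36 and 8.35 with DC101. Mitf, a transcription factor of MC, was at 7.56 and 6.22 with placebo and at 6.13 and 6.87 with DC101. All 15 measured genes of IgE receptor signalling had the same order, and none was at the thresholds. Genes of antigen presentation had another order. The mean level of 10 MHC class II genes was 5.89 and 6.59 with placebo and 6.39 and 6.32 with DC101, and placebo array 1 was the lowest in 9 of them. H2-Oa was the member at the thresholds (0.382% of all clusters higher), at 4.25 and 4.31 with placebo and at 5.07 and 5.67 with DC101. Interferon genes were lowest on the array with the highest mean level of MC genes, and the part of this difference between arrays in the interferon values was not tested.

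**Figure D5:**
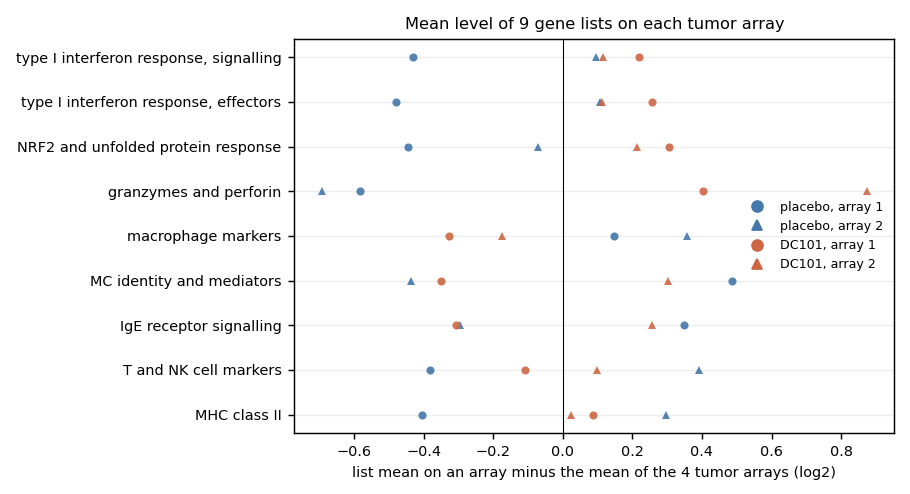
Mean level of the members of 9 gene lists on each tumor array, given as the difference from the mean of the 4 tumor arrays (x axis, log2). Blue points are placebo, orange points DC101, circles array 1 and triangles array 2. MC identity and IgE receptor genes are high on placebo array 1 and DC101 array 2, and interferon genes are low on placebo array 1 alone. The macrophage list, the granzyme list and the NRF2 and unfolded protein list separate the treatments.

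The tumor response was set beside the peritoneal one, in which 599 clusters rose (2.48%) and 506 fell (2.1%) at adjusted p under 0.05. The DC101 effect differed between tumor and peritoneal MC in 194 clusters by limma's interaction contrast (0.805%), and 15 of the 164 clusters at the study's thresholds in tumor MC were among them. The contrast contains the same tumor difference by which the 164 were chosen. A share above 0.805% among them therefore follows in part from that choice. Of these 164, 20 also passed adjusted p in peritoneal MC, 10 in the same direction and 10 in the opposite direction. Gzmb was higher in tumor MC by 1.36 and fell by 3.89 in peritoneal MC on the log2 scale (adjusted p = 0.00078 for the interaction in limma), and Mcpt8 was higher by 1.71 and fell by 2.60 (adjusted p = 0.0052). Gzma, not at the thresholds in tumor MC, also fell in peritoneal MC, by 3.51. Of the 13 measured T and NK cell markers, 8 also fell there at adjusted p under 0.05 and 0 rose (limma), against 2.1% and 2.48% of all clusters. Their median log2 fold change in peritoneal MC was −1.64. Their part in the peritoneal granzyme values was not tested. Gzmf had a log2 fold change of 0.43 in peritoneal MC, with all 4 arrays near background, and Gzmg of −0.38, and the interaction passed for both (adjusted p = 0.042 in limma). For Gzmd it did not pass (adjusted p = 0.12). Fcrls, Itga2 and Adgre1 went the other way. Fcrls was at −1.69 in tumor MC and rose by 3.05 in peritoneal MC, Itga2 was at −1.34 and rose by 2.55, and Adgre1 was at −1.02 with a peritoneal value of 0.82 that did not pass (adjusted p = 0.048 for the interaction). Chil3 and Lyve1 were higher in both, by 1.34 and 1.002 in tumor MC and by 4.77 and 4.71 in peritoneal MC, and the difference between the compartments passed (adjusted p = 0.021 and 0.011). Slc7a11 rose by 2.80 in peritoneal MC. Stat2 was level there (0.04), and for Stat2 the difference did not pass (adjusted p = 0.21). Medians of the interferon signalling and effector lists in peritoneal MC were 0.04 and −0.02. Without moderation of the spread, 0 clusters passed for the interaction (limma), and between 22 and 187 did when 1 of the 8 arrays was left out.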

How the data were processed

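Sorted MC of 4 groups with 2 arrays each were measured on 1-colour Affymetrix Mouse Gene 2.1 arrays. The authors made the deposited log2 values with RMA (background correction, quantile normalization and a summary of the probes of each transcript cluster), in a version not given in the sources used here. A shift common to all genes is lost in such a normalization. Arrays have no sequencing depth, and their number limits the precision. Of 24111 clusters, 21508 had 1 symbol in the platform annotation, 566 had several and 2037 had none. For 187 genes with several clusters, the one highest on average was used.

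With limma 3.58.1 in R 4.3.3, 1 mean per group was fitted over all 8 arrays (4 residual degrees of freedom, 4.93 from the prior) and p-values were adjusted by Benjamini-Hochberg over 24111 clusters. The study prints thresholds of 0.05 for p and 1 for logFC (f-test) without saying if p was adjusted, so both forms were counted. The script was tested on simulated data. Members, the 38 gene lists and tests were chosen with earlier results of these data known. Named are the 15 genes with the largest difference in each direction (1 symbol, at the study's thresholds, groups apart, mean of the tumor arrays above the median cluster, no Gm-numbered models, Rik clones, small RNAs or olfactory and vomeronasal receptors, which left out 14 genes), list members at the thresholds, up to 4 further members per list with the highest mean, and the sort markers. Other members named in the text were chosen after their values were seen. Alternatives were the tumor arrays alone, array weights, an intensity trend with robust prior, cyclic loess, a fit without moderation, clusters above the median or with 1 symbol, the replicate number as a block, and leaving out each array. Promoters came from a RefSeq table of GRCm38.p6, matched by symbol. Figures were drawn with matplotlib 3.10.9.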

Additional observations from a re-analysis of the deposited data

Results flagged for a closer look

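The DC101 effect differed between tumor and peritoneal MC at an adjusted p under 0.05 (limma's interaction contrast) for 9 of the named genes that were at the study's thresholds in tumor MC. These genes were chosen by the tumor difference that the contrast contains, so the choice favours large interaction values. The tumor effect minus the peritoneal effect, on the log2 scale, was 5.26 for Gzmb, 4.31 for Mcpt8, 3.29 for Gzmg and 2.87 for Gzmf. For Gzmg and Gzmf, the tumor placebo arrays and all 4 peritoneal arrays were in the range of background, so that the tumor DC101 arrays alone held a measurable level and the size of the difference is uncertain. It was −4.74 for Fcrls, −3.88 for Itga2, −3.70 for Lyve1, −3.43 for Chil3 and −1.83 for Adgre1. For Lyve1 and Chil3 the negative value means a smaller positive difference in tumor MC, and for Gzmf a larger one. Both compartments share 1 spread per cluster in this fit. Groups of 2 arrays are too small for a test of single outlying arrays.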

How the results depend on the processing

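The number of arrays limits all counts. In tumor MC the count at adjusted p under 0.05 was 0 in the fit over all arrays and 23 by the nested F-test, 1 with an intensity trend and robust prior, and between 0 and 2 when each array was left out (2 without placebo array 2 of the tumors). It was 0 under each of the other settings. The count at the study's thresholds was 164, and 87 without moderation and 92 among clusters above the median. It was between 160 and 416 when each array was left out. The interaction count was 194, and 477 with the intensity trend and robust prior, 346 among clusters above the median, 0 without moderation and 113 with the replicate block, and between 22 and 187 when each array was left out. With the replicate number as a block (replicate block), 166 clusters were at the study's thresholds in tumor MC, 161 of the 164 among them, and 0 passed adjusted p. Same-numbered arrays did not deviate together (the correlation of their deviations was −0.16 between tumor placebo and tumor DC101 and between −0.02 and 0.02 for the other pairs of groups). With 2 arrays per group, this cannot tell whether any arrays are paired. With the numbers crossed in tumor MC as a block, chosen after seeing the data, the counts were 0 at adjusted p, 167 at the thresholds and 145 for the interaction. Of 44 named genes at the thresholds, none reversed under any setting. The groups of these genes do not overlap, so no setting but cyclic loess could have reversed a sign. Without moderation, 20 of the 44 missed the thresholds. Cyclic loess took Gp9, a platelet glycoprotein gene, below the fold threshold. List medians moved by less than the spread of the array means in 110 values under other settings and by more in 4, and by less in 123 and by more in 29 with a tumor array left out.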

Other observations

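Small nucleolar RNA genes, which guide the modification of ribosomal RNA, were a further group with mostly positive values in tumor MC, noticed after the values were seen. Of 67 clusters annotated as snoRNA, 56 had a positive log2 fold change (83.6%, against 45.3% of all clusters), and both DC101 arrays lay above both placebo arrays in 30 and below both in 3, against 15.7% and 20.6% of all clusters. Their median log2 fold change was 0.36, and their mean level was 4.22 and 4.34 with placebo and 4.68 and 4.57 with DC101. At the study's thresholds were Snora21, at 6.64 and 6.39 with placebo and at 8.01 and 7.32 with DC101, and Snord49a, at 5.28 and 4.54 with placebo and at 5.40 and 6.49 with DC101. None passed adjusted p (limma), and 15 were higher and 2 lower at an unadjusted p under 0.05, against 2.36% and 2.68% of all clusters.

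Of 441 clusters annotated as microRNA genes, 6 were higher and 4 lower at the study's thresholds (0.382% and 0.299% of all clusters), with a median of 0.04 over all of them. These probes read precursor or host transcripts and not mature microRNAs. Mir5098 was at 2.88 and 2.35 with placebo and at 4.69 and 4.47 with DC101, Mir505 at 4.30 and 5.09 with placebo and at 5.81 and 5.97 with DC101, and Mir196a-1 at 4.68 and 3.83 with placebo and at 2.47 and 2.89 with DC101. The placebo arrays for Mir5098 and the DC101 arrays for Mir196a-1 were in the range of background.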
